A study of Homo sapiens with 9 samples.

Results

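The TGF-beta ligand TGFB1, its receptors TGFBR1 and TGFBR2, and the SMAD proteins SMAD1 to SMAD7 were followed by RNA-seq in HepG2 cells after knockdown of the long non-coding RNA IGFRIL or of PTBP1. These genes were chosen by name, and all 10 of 10 were among the 15164 genes with values. HepG2 is an established cell line, labelled here as hepatocellular carcinoma cells of WT genotype. The control cells received si-scramble (labelled si-NC, here siCtrl) and the knockdown cells received si-IGFRIL (siIGFRIL) or si-PTBP1 (siPTBP1). Each group had 3 libraries. PTBP1 is an RNA-binding protein that acts in splicing and mRNA stability. Whether libraries of a group stem from different cultures is not stated in the labels, and the p-values below reflect only library-to-library spread, possibly technical. Time after transfection, the siRNA dose and the number of siRNAs per target are not given in the labels.

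TGF-beta binds the type II receptor TGFBR2, which recruits and phosphorylates the type I receptor TGFBR1. The activated type I receptor phosphorylates the receptor-regulated SMADs SMAD2 and SMAD3, while receptors for bone morphogenetic proteins (BMPs) act mainly on SMAD1 and SMAD5. Phosphorylated SMADs join SMAD4, enter the nucleus and regulate genes, among them SMAD6 and SMAD7, whose products inhibit the pathway in a feedback loop. In the liver the pathway is known for growth arrest of hepatocytes and for fibrosis, and in liver cancer for both tumour-restraining and invasion-promoting roles.

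SMAD complexes bind short DNA elements, so the promoters of the feedback genes SMAD6 and SMAD7 are shown with the letters that SMAD3 and SMAD4 are known to recognise. RefSeq promoters on GRCh38.p14, from 250 bases before to 50 bases after each annotated start, were searched for the palindrome GTCTAGAC and for CAGAC on both strands (CAGAC or GTCTG). Neither string lies within the other. The palindrome was present in 0.202% of all 35116 promoter windows of this length, and CAGAC in 45.3%. Among the 10 genes, SMAD6 was the one with a palindrome, starting 12 bases before its start and marked in capitals. The first SMAD7 window held CAGAC at 217 and 128 bases before its start, also in capitals. Of the other SMAD7 windows, one held GTCTG at 193 bases before its start, not printed below, and the last held neither string. All runs are written 5′ to 3′ on the strand of the gene.
SMAD6 palindrome, chr15:66702215-66702240, plus strand: cgccaaagtGTCTAGACtggcatatg
SMAD7 first match, chr18:48951169-48951191, minus strand: ggacgccccCAGACctctgaggt
SMAD7 second match, chr18:48951080-48951102, minus strand: ttattttgcCAGACgtctcatgc
In TGFBR1, SMAD1 and SMAD3 at least 1 of several windows held CAGAC, and no window of TGFB1, TGFBR2, SMAD2, SMAD4 or SMAD5 held either string. A match describes the letters in the window and is no measured binding.

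Total counts ran from 23426747 to 27942736 per library. Counts were scaled by TMM (trimmed mean of M values) and tested with limma. TMM scales for depth and also for the trimmed mean of the log ratios between libraries, so fold changes in siPTBP1 depend on it. Calls required an adjusted p (Benjamini-Hochberg, over all 15164 genes) under 0.05 and more than a 1.2-fold change. PTBP1 itself had 9750, 10116 and 9524 TMM-scaled counts in the siCtrl libraries, against 10335, 9960 and 10528 with siIGFRIL and 2297, 2141 and 2084 with siPTBP1, where it fell by 2.17 on the log2 scale (SE 0.045, adjusted p = 3.2e-17). IGFRIL was not matched to a gene by its name, so its own level is not analysed here. Library 3 of siCtrl and library 2 of siIGFRIL stood apart from the others of their groups, with a chi-square per degree of freedom of 8.03 to 9.66 in siCtrl and 8.16 to 8.42 in siIGFRIL, against 2.91 and 2.57 for the remaining pairs. Of 12 hepatocyte markers, FGG and TF were among the genes with values, and ALB, AFP, APOA1 and HNF4A were not among them. FGG and TF summed to 0.964 to 1.17 CPM (the usual depth-scaled count) in siCtrl, 1.33 to 1.36 in siIGFRIL and 2.76 to 3.78 in siPTBP1. Of 10 stellate cell and fibroblast markers 6 had values, summing to 586 to 613 CPM in siCtrl, 589 to 616 in siIGFRIL and 686 to 693 in siPTBP1. Most of this sum came from COL3A1 at 346 and COL1A1 at 213 CPM in siCtrl. There PDGFRB was at 28.6, RGS5 at 6.24, ACTA2 at 1.09 and LUM at 0.247 CPM. COL1A2, PDGFRA, DCN and THY1 were not among the genes with values. Of 8 endothelial markers 3 had values, summing to 14.2 to 15.6 CPM in siCtrl, 10.6 to 11.8 in siIGFRIL and 3.09 to 4.19 in siPTBP1. In siCtrl CDH5 was at 14.4 CPM, against 0.438 for VWF and 0.24 for PECAM1. Of 10 leukocyte markers 3 had values, at 7.4 to 8.67, 9.96 to 10.8 and 12.1 to 13.3 CPM. The labelled liver cell identity was thus not borne out by its defining markers, and the part of these markers in the results was not tested. In bulk RNA, fewer cells of a type and less RNA per cell cannot be told apart.

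Upon PTBP1 knockdown TGFB1 rose to 2.90 times its siCtrl level, and SMAD7 did not pass the test as measured. Both receptors and SMAD1 to SMAD6 fell as measured. Once the trend with exon length and GC content was removed, TGFBR1, SMAD2 and SMAD4 were called higher, SMAD7 was called lower, and SMAD3 was not called. The fall of SMAD6 did not pass the fold threshold with the length trend alone removed. The siPTBP1 libraries of 9 of the 10 genes did not overlap those of siCtrl, where 37.4% of all genes did not overlap and were higher and 38.6% lower. By the test, 1 of the 10 genes was called higher and 8 were called lower, in a comparison in which 32.2% of all genes were called higher and 33.8% lower. The median log2 fold change of the 10 genes was -0.58, against 0.0039 over all genes. After IGFRIL knockdown 0 of the 10 genes were called by limma in either direction, beside 0.27% of all genes called higher and 0.191% called lower. At an unadjusted p under 0.05, 2 of the 10 genes (TGFBR1 and TGFBR2) passed in siIGFRIL, beside 9.92% of all genes. In the direct test of siPTBP1 against siIGFRIL, where siCtrl cancels, TGFB1 was again called higher and the same 8 genes lower, against 31.5% and 33.1% of all genes. These calls held when either library that stood apart, or any other single library, was left out, and when both were left out together.

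**Figure D1:**
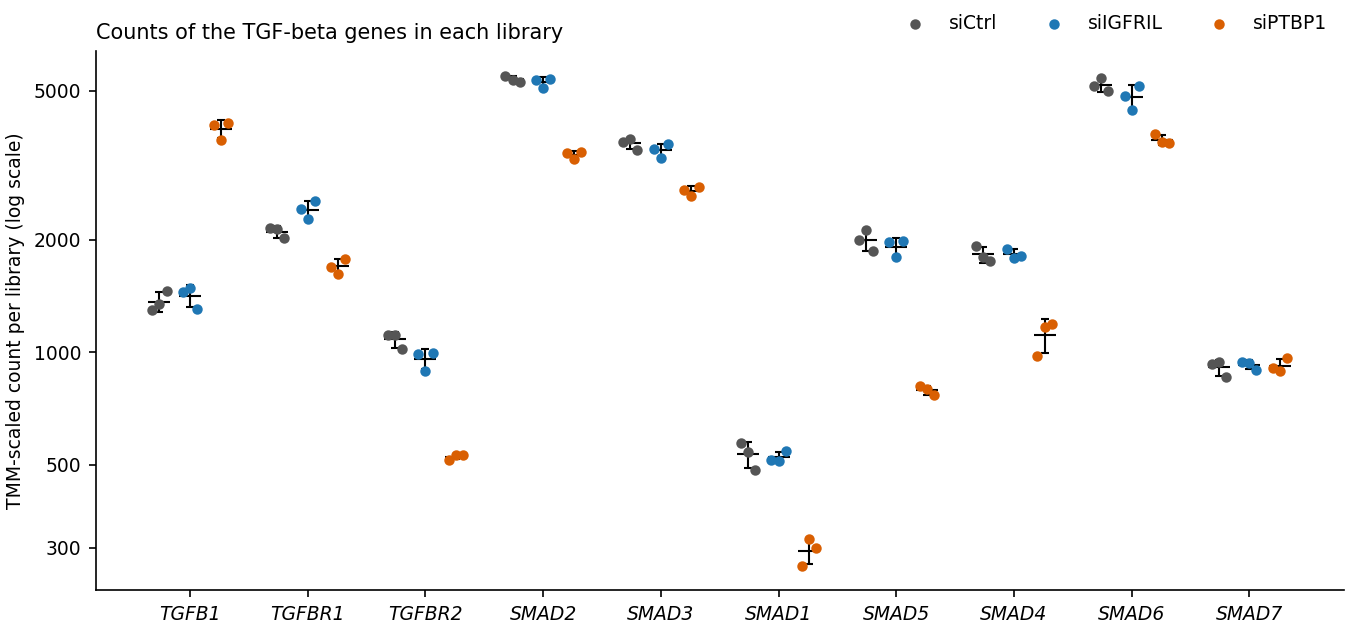
TMM-scaled counts per library (log scale) of the 10 genes in siCtrl (grey), siIGFRIL (blue) and siPTBP1 (orange), with the mean and SD of 3 libraries in black. TGFB1 in siPTBP1 lies above both other groups at 3704 to 4112, 8 genes lie below them as measured, and SMAD7 overlaps in all groups. Of the 8 genes, 4 are not called lower once the length and GC trend is removed.

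The ligand was the gene with the largest change. TGFB1 (chr19:41301587-41353922 on GRCh38, minus strand, 8 exon blocks), which encodes the TGF-beta 1 precursor, had 1296, 1345 and 1455 TMM-scaled counts in the siCtrl libraries, against 1453, 1490 and 1306 with siIGFRIL and 4056, 3704 and 4112 with siPTBP1. The siPTBP1 libraries lay far above the other 6, which overlapped each other. The log2 fold change against siCtrl was 1.53 (SE 0.061, adjusted p = 7.8e-14) in siPTBP1 and 0.05 (SE 0.061, adjusted p = 0.844) in siIGFRIL. Against siIGFRIL, TGFB1 in siPTBP1 differed by 1.48 (adjusted p = 1.5e-13). Of its exon bases, 6.59% are shared with HNRNPUL1, and whether reads were counted by strand is not given. The genes whose log2 counts ran most closely with TGFB1 over the 9 libraries were PTOV1, RABEP2 and NTHL1, with Pearson r from 0.998 to 0.999, as a description of libraries that share 3 groups.

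The receptors fell to different degrees as measured, and TGFBR1 did not fall once the length and GC trend was removed. TGFBR2 (chr3:30606601-30694142, plus strand), the receptor that binds the ligand, had 1113, 1115 and 1021 TMM-scaled counts in the siCtrl libraries, against 992, 892 and 996 with siIGFRIL and 517, 531 and 532 with siPTBP1. The 3 groups did not overlap, and the siPTBP1 libraries lay close to each other. Its log2 fold change was -1.04 (SE 0.065, adjusted p = 2.5e-11) in siPTBP1 and -0.17 (SE 0.065, 95% confidence interval -0.31 to -0.04, adjusted p = 0.325) in siIGFRIL. TGFBR1 (chr9:99104038-99154192, plus strand), the kinase that phosphorylates SMAD2 and SMAD3, had 2151, 2140 and 2016 counts in the siCtrl libraries, against 2410, 2275 and 2541 with siIGFRIL and 1692, 1623 and 1777 with siPTBP1. Its groups did not overlap either, but here siIGFRIL was the highest and siPTBP1 the lowest.

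TGFBR1 changed by -0.31 (SE 0.054, adjusted p = 3.9e-05) in siPTBP1 and by 0.20 (SE 0.054, 95% confidence interval 0.08 to 0.31, adjusted p = 0.133) in siIGFRIL. The difference between both knockdowns was -0.50 (adjusted p = 7.1e-08). Under siIGFRIL the adjusted p of TGFBR1 ran from 0.0482 to 0.793 over 26 alternatives of the processing, with a log2 fold change of at most 0.24, under the fold threshold in each. In that comparison, 8% of all genes did not overlap and were higher, as TGFBR1 was, and 7.26% did not overlap and were lower, as TGFBR2 was. The ratio of TGFBR1 to TGFBR2 counts was 1.93, 1.92 and 1.97 in the siCtrl libraries, against 2.43, 2.55 and 2.55 with siIGFRIL and 3.27, 3.06 and 3.34 with siPTBP1. This ratio was chosen with the values known and was given no test.

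The SMADs that receive the TGF-beta signal had smaller log2 fold changes than TGFBR2. Once the length and GC trend was removed, SMAD2 did not fall and SMAD3 was not called. SMAD2 (chr18:47808957-47931146, minus strand) had 5485, 5346 and 5283 TMM-scaled counts in the siCtrl libraries, against 5349, 5085 and 5374 with siIGFRIL and 3410, 3292 and 3433 with siPTBP1. SMAD3 (chr15:67063763-67195173, plus strand), which unlike the main SMAD2 isoform binds DNA itself, had 3644, 3728 and 3485 in the siCtrl libraries, against 3505, 3307 and 3595 with siIGFRIL and 2713, 2618 and 2770 with siPTBP1. For both genes siCtrl and siIGFRIL overlapped and siPTBP1 lay below. The log2 fold change in siPTBP1 was -0.67 for SMAD2 (SE 0.042, adjusted p = 2.6e-11) and -0.42 for SMAD3 (SE 0.047, adjusted p = 1.1e-07). In siIGFRIL SMAD2 differed by -0.03 (95% confidence interval -0.12 to 0.06) and SMAD3 by -0.06 (95% confidence interval -0.16 to 0.04).

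Of the SMADs of the BMP branch, SMAD1 and SMAD5 had larger log2 fold changes and kept their direction and calls with the length and GC trend removed. SMAD9, outside the 10 genes, did not share this and is given below. SMAD5 (chr5:136132845-136188747, plus strand) had 1993, 2126 and 1867 TMM-scaled counts in the siCtrl libraries, against 1971, 1797 and 1981 with siIGFRIL and 811, 799 and 767 with siPTBP1, a change of -1.33 on the log2 scale (SE 0.059, adjusted p = 3.1e-13) to 0.398 times siCtrl. This was the largest fall among the 10 genes. SMAD1 (chr4:145481194-145559176, plus strand) had 572, 542 and 486 counts in the siCtrl libraries, against 516, 512 and 545 with siIGFRIL and 269, 317 and 300 with siPTBP1, a change of -0.85 (SE 0.084, adjusted p = 2e-08). Both had siIGFRIL libraries within or overlapping the siCtrl range, with differences of -0.06 (95% confidence interval -0.18 to 0.07) for SMAD5 and -0.02 (-0.20 to 0.16) for SMAD1. Other genes, SMAD5-AS1 among them, overlap 6.75% of the SMAD5 exon bases, and SMAD1-AS1 overlaps 5.3% of those of SMAD1. Without strand, reads there cannot be told apart.

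SMAD4 (chr18:51028528-51085045, plus strand), the common partner of both branches, whose direction turned once the length and GC trend was removed, had 1925, 1800 and 1755 TMM-scaled counts in the siCtrl libraries, against 1891, 1784 and 1809 with siIGFRIL and 978, 1171 and 1188 with siPTBP1. The siIGFRIL libraries lay within the siCtrl range, and library 1 of siPTBP1 was the lowest of all. The log2 fold change was -0.72 (SE 0.067, adjusted p = 8.9e-09) in siPTBP1 and 0.0019 (95% confidence interval -0.14 to 0.14) in siIGFRIL.

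The inhibitory SMADs differed from each other. SMAD6 (chr15:66702236-66782849, plus strand), which mainly restrains BMP signalling and carries the palindrome shown above, had 5153, 5421 and 4998 TMM-scaled counts in the siCtrl libraries, against 4854, 4457 and 5155 with siIGFRIL and 3837, 3653 and 3629 with siPTBP1. It changed by -0.49 (SE 0.052, adjusted p = 5.9e-08, but -0.13 with no call when the exon length trend alone was removed) in siPTBP1 and by -0.11 (95% confidence interval -0.22 to 0.00044, adjusted p = 0.507) in siIGFRIL. SMAD7 (chr18:48919853-48950965, minus strand), which blocks TGFBR1 and recruits ubiquitin ligases to it, had 929, 945 and 859 counts in the siCtrl libraries, against 945, 936 and 898 with siIGFRIL and 907, 893 and 964 with siPTBP1. All 3 groups of SMAD7 overlapped, unlike those of the other 9 genes in siPTBP1.

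The SMAD7 log2 fold change was 0.02 (95% confidence interval -0.11 to 0.15, adjusted p = 0.811) in siPTBP1 and 0.02 (-0.10 to 0.15, adjusted p = 0.94) in siIGFRIL. A change of the size seen in SMAD6 or SMAD4 was thus outside its interval in siPTBP1, on the scale as measured. With the length and GC trend removed SMAD4 was at 0.27 and SMAD7 at -0.35, so the ratio of these genes holds for the counts as measured only. The ratio of SMAD7 to SMAD4 counts was 0.483, 0.525 and 0.49 in the siCtrl libraries, against 0.5, 0.524 and 0.496 with siIGFRIL and 0.927, 0.763 and 0.812 with siPTBP1. The ratio of TGFB1 to TGFBR2 counts was 1.17, 1.21 and 1.42 in the siCtrl libraries, against 1.47, 1.67 and 1.31 with siIGFRIL and 7.85, 6.98 and 7.74 with siPTBP1. Both ratios are descriptions, chosen with the values known.

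**Figure D2:**
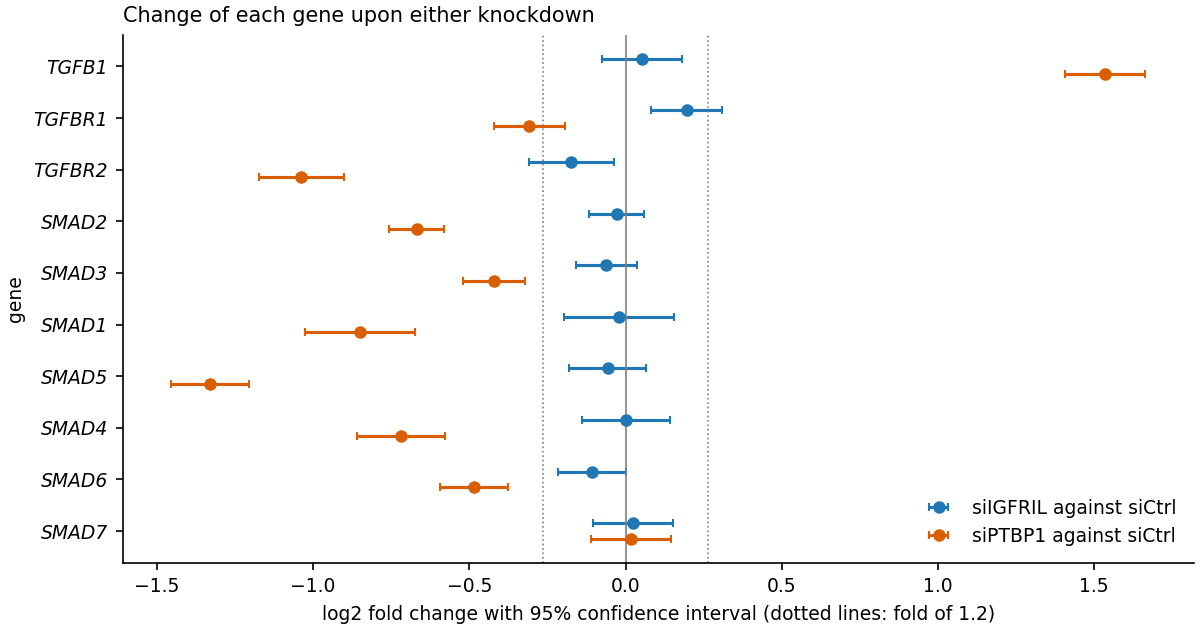
Log2 fold change against siCtrl with its 95% confidence interval (limma, 3 libraries per group) for siIGFRIL (blue) and siPTBP1 (orange), with dotted lines at a fold change of 1.2. Blue points stay between the dotted lines, with TGFBR1 at 0.20 and TGFBR2 at -0.17 the farthest from 0, and orange points, as measured with no trend removed, run from -1.33 (SMAD5) to 1.53 (TGFB1).

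Levels were compared between genes as CPM per kilobase of the GENCODE canonical transcript. In siCtrl SMAD6 had the highest level at 52.9 CPM per kb (range 51.0 to 55.3), followed by SMAD3 at 21.9, TGFB1 at 19.2 and TGFBR1 at 12.6. SMAD5 at 11.1 and SMAD7 at 10.6 overlapped in range, and TGFBR2 at 9.34, SMAD4 at 8.13, SMAD1 at 6.94 and SMAD2 at 6.06 followed without overlap. The SMAD2 value rests on a canonical transcript of 34626 bases and would be higher for a shorter one. In siIGFRIL the order of the first 4 genes was the same, although the ranges of SMAD3 (21.0) and TGFB1 (19.9) overlapped. In siPTBP1 TGFB1 led at 55.6 CPM per kb (range 52.0 to 57.8), above SMAD6 at 37.8 (range 37.0 to 39.1). SMAD7 at 10.8 and TGFBR1 at 10.2 overlapped there, as did SMAD4 at 4.95, TGFBR2 at 4.54 and SMAD5 at 4.41, each with its neighbour.

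Fold changes in siPTBP1 ran with transcript length across all genes. With the 13876 annotated genes in 10 groups by exon length, the shortest group had a median log2 fold change of 0.68 and the longest one of -0.62, against 0.03 and -0.04 in siIGFRIL. TGFB1 and SMAD7 are the short genes of the 10, with 3264 and 3946 exon bases, in groups with medians of 0.33 and 0.14. TGFBR2 and SMAD1 were in a group with a median of -0.25, TGFBR1 and SMAD6 in one with -0.28, SMAD3 and SMAD5 in one with -0.51, and SMAD2 and SMAD4 in the longest. TGFBR1, SMAD3, SMAD2 and SMAD4 thus lay near the median of their length group, while TGFB1 lay above and SMAD5, TGFBR2 and SMAD1 below.

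When the trend with exon length and GC content was removed in the fit, TGFB1 (0.82), TGFBR2 (-0.64), SMAD5 (-0.64), SMAD6 (-0.39) and SMAD1 (-0.37) kept their calls in siPTBP1. TGFBR1 (0.33), SMAD2 (0.41) and SMAD4 (0.27) turned to higher calls, SMAD3 (-0.10) lost its call and SMAD7 (-0.35) became a lower call. With the canonical transcript length in place of all exons, an alternative chosen after seeing the data, SMAD7 was at -0.10 with no call and SMAD3 at 0.11. The 10 genes then held 4 higher and 5 lower calls (exon length) or 4 and 4 (canonical transcript), in place of 1 and 8. Of all 13876 genes, 3899 were then called higher and 4093 lower (exon length), or 3413 and 3647 (canonical transcript). Each trend was then removed alone, also chosen after seeing the data. With exon length alone, TGFB1 (1.27), TGFBR2 (-0.82), SMAD5 (-0.94) and SMAD1 (-0.61) were called, while TGFBR1 (0.0097), SMAD2 (0.13), SMAD3 (0.016), SMAD4 (-0.074) and SMAD6 (-0.13) lost their calls. With GC content alone, those 4 genes kept their calls, SMAD3 (-0.58) and SMAD6 (-0.84) were called lower too, and TGFBR1 (0.18), SMAD2 (-0.24) and SMAD4 (-0.18) lost their calls. SMAD7 was at -0.11 with no call by length alone and at -0.31 with a lower call by GC alone. Of all 13876 genes, 4220 were called higher and 4423 lower by length alone, and 4169 and 4473 by GC alone. TGFB1, TGFBR2, SMAD1 and SMAD5 were thus the genes called in the same direction under each of these 4 settings.

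**Figure D3:**
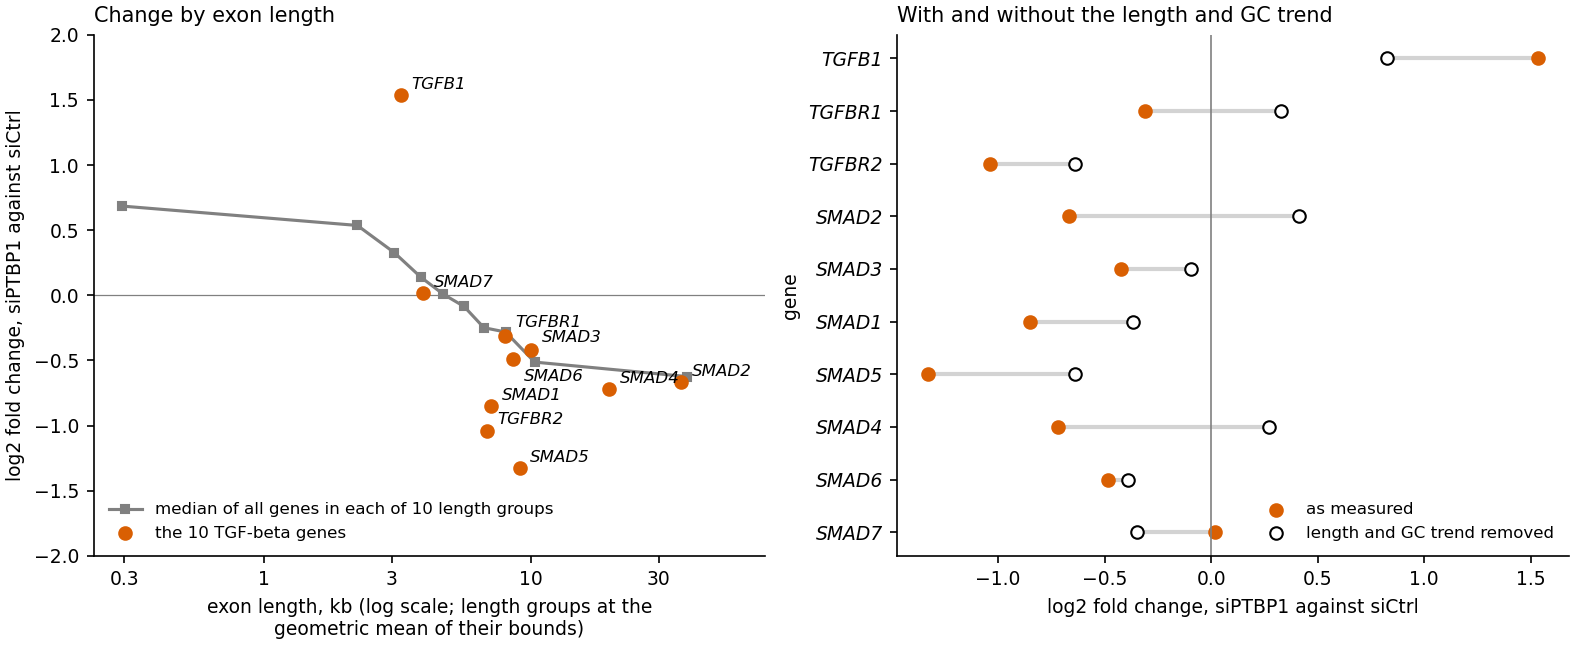
Left, log2 fold change of the 10 genes in siPTBP1 against siCtrl by exon length in kb (log scale), with the median of all genes in 10 length groups in grey. Right, the same fold changes as measured (orange) and with the length and GC trend removed (white), where TGFBR1, SMAD2, SMAD4 and SMAD7 cross 0 and TGFB1 goes from 1.53 to 0.82.

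The rest of the pathway was described by 10 gene lists with 174 further genes, 133 of which had values. In siPTBP1 40 of these (30.1%) were called higher, 68 (51.1%) lower and 25 were not called, with a median log2 fold change of -0.33. Over all genes 32.2% were called higher and 33.8% lower, shares that also stand beside each list count below. Removing the length and GC trend gave 32 higher and 59 lower, or 38 and 46 with canonical transcripts. Of all 13876 genes, 3899 and 4093 were then called, or 3413 and 3647. In siIGFRIL 1 was called higher and 0 lower by limma, beside 0.27% and 0.191% of all genes. At an unadjusted p under 0.05, 23 of the 133 passed, beside 9.92% of all genes.

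Of the other ligands, 15 of 32 had values, and 3 were called higher and 8 lower in siPTBP1. BMP2 and BMP6, which signal through SMAD1 and SMAD5, changed by -0.79 (adjusted p = 1.8e-11) and -0.44 (adjusted p = 4.5e-07). GDF15, a stress-induced member of the family, changed by -0.91 (adjusted p = 2.6e-09). TGFB2, another TGF-beta isoform, went the other way from TGFB1, from 266 ± 9.77 TMM-scaled counts (SD, n = 3) in siCtrl to 56.5 ± 1.09 in siPTBP1, a log2 fold change of -2.21 (adjusted p = 1.2e-12). Other genes share 34.2% of the TGFB2 exon bases.

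TGF-beta is secreted in a latent form. Of the genes for its latency and release, 2 of 12 were called higher and 7 lower in siPTBP1. ITGAV, the integrin subunit that helps to release active TGF-beta, and THBS1, thrombospondin 1, which can activate it, changed by -1.83 (adjusted p = 1.1e-12) and -2.08 (adjusted p = 5.6e-13) on the log2 scale. LTBP3, which anchors the latent complex in the matrix, changed by 0.75 (adjusted p = 1.6e-05, but 0.16 with no call when the GC trend alone was removed), and FURIN, the protease that cleaves the precursor, by 0.0046 (adjusted p = 0.922, but called lower at -0.42 with the length and GC trend removed). Of 7 secreted antagonists with values 5 were called higher and 1 lower, with FSTL3 at 0.63 (adjusted p = 5.3e-11) and FSTL1 at -0.76 (adjusted p = 5.1e-12). With the length and GC trend removed FSTL3 turned to -0.23, FSTL1 was at -0.13 with no call (-0.035 on the canonical transcript) and the antagonists held 2 higher calls and 0 lower.

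Of the other receptors and co-receptors with values, 9 of 12 were called lower and 3 higher. The co-receptor TGFBR3, betaglycan, which presents ligand to TGFBR2, fell from 1108 ± 128 to 354 ± 2.79 TMM-scaled counts (SD, n = 3), by 1.63 on the log2 scale (adjusted p = 8.6e-13). The BMP receptors BMPR2 (-1.07, adjusted p = 1.4e-10), BMPR1A (-0.81, adjusted p = 4e-11) and ACVR1 (-0.78, adjusted p = 7.9e-08) fell too. Higher were the co-receptor ENG, endoglin (0.49, adjusted p = 6.2e-09, but -0.079 with the length and GC trend removed), and BAMBI, a decoy receptor without a kinase (0.88, adjusted p = 1.7e-09). Removing the length and GC trend left 1 receptor called higher and 5 lower and moved the median from -0.80 to -0.19, with ACVR1 at -0.15 (adjusted p = 0.107), BMPR1A at -0.088 and BMPR2 at -0.23, none of them called. On the canonical transcript BMPR1A and BMPR2 were at 0.034 and 0.027.

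Of 16 SMAD adaptors and partners 3 were called higher and 10 lower, among them IPO7, an importin for SMADs, at -1.04 (adjusted p = 1.4e-11). SMAD9, the remaining SMAD of the BMP branch, changed by 0.11 (SE 0.111, adjusted p = 0.384), unlike SMAD1 and SMAD5, with 303 ± 58.6 counts in siCtrl (SD, n = 3). With the length and GC trend removed it was called higher, at 0.47 (adjusted p = 0.00117). Of 24 genes listed as negative regulators, not all of which act only that way (RNF111 is among them), 6 were called higher and 15 lower. The ubiquitin ligases WWP1 (-1.90, adjusted p = 2.1e-14), SMURF1 (-0.55, adjusted p = 2.1e-08) and SMURF2 (-0.32, adjusted p = 7.3e-05, but 0.21 with the length and GC trend removed) and the SMAD corepressor SKIL (-1.04, adjusted p = 1.9e-11) fell. On the canonical transcript with GC, SKIL (-0.093), SMURF1 (-0.062) and IPO7 (-0.18) were not called. PMEPA1, which sequesters SMAD2 and SMAD3 and is itself a TGF-beta target, rose by 0.83 (adjusted p = 7.6e-09), and the corepressor TGIF1 at 0.24 (adjusted p = 8.1e-05) lay just under the fold threshold. TGIF1 was called higher with the length and GC trend removed (0.63, adjusted p = 7.6e-10), by quantile normalization (0.27) and without both libraries that stood apart (0.27).

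Of 6 deubiquitinases 1 was called higher and 4 lower, with OTUB1 at 0.82 (adjusted p = 1.9e-09, but 0.049 with no call on the canonical transcript) and USP9X, which acts on SMAD4, at -0.93 (adjusted p = 2.4e-07, but -0.071 with no call upon removal of the length and GC trend). Upon that removal, the median of that list turned from -0.49 to 0.09. Of 12 kinases and partners outside the SMAD route 2 were called higher and 7 lower. MAP3K7 (TAK1), a kinase activated by the TGF-beta receptors, changed by -0.62 (adjusted p = 4.4e-08, but 0.13 with that trend removed).

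Target genes had more higher than lower calls against siCtrl as measured, which for the TGF-beta targets was not so against siIGFRIL. There 6 of the TGF-beta targets were called higher and 6 lower in siPTBP1 (28.6% each), beside 31.5% and 33.1% of all genes. Of 21 TGF-beta targets with values 11 (52.4%) were called higher and 6 (28.6%) lower in siPTBP1, with a median of 0.30. Over all genes 32.2% were called higher and 33.8% lower. PDGFB, a growth factor subunit, had a log2 fold change of 1.83 (adjusted p = 3.1e-11) and TGFBI of 0.56 (adjusted p = 1.1e-07). CCN2 (CTGF) fell by 1.17 (adjusted p = 3.6e-09), and COL1A1 at 0.25 (adjusted p = 0.00023) lay just under the fold threshold. COL1A1 was called higher in 9 of 26 alternatives, at 0.32 without siCtrl library 3, 0.29 without siPTBP1 library 3, 0.27 without siIGFRIL library 2 and 0.27 with the length and GC trend removed, and it was at -0.25 with the GC trend alone removed. The excess of higher calls depended on the scaling. With scaling by total count alone the list had 6 higher and 7 lower calls, beside 4216 and 5806 of all genes. Without scaling for depth the list had 5 higher and 7 lower calls, and with the length and GC trend removed 8 and 7, with a median of 0.0065.

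Of 8 BMP targets 4 were called higher and 1 lower. MSX1 (1.11, adjusted p = 1e-07) and ID3 (0.87, adjusted p = 0.00058) rose, ID2 fell by 0.39 (adjusted p = 1e-05, with no call at -0.22 by quantile normalization), and ID1 at -0.12 (SE 0.203, adjusted p = 0.632) varied widely among the siPTBP1 libraries, with 12831 ± 3394 TMM-scaled counts (SD, n = 3). With the length and GC trend removed ID3 turned to -0.10, MSX1 lost its call (0.23, adjusted p = 0.135), ID1 was called lower (-1.18, adjusted p = 0.00158, and -0.34 without scaling for depth) and the list held 2 higher and 4 lower calls.

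**Figure D4:**
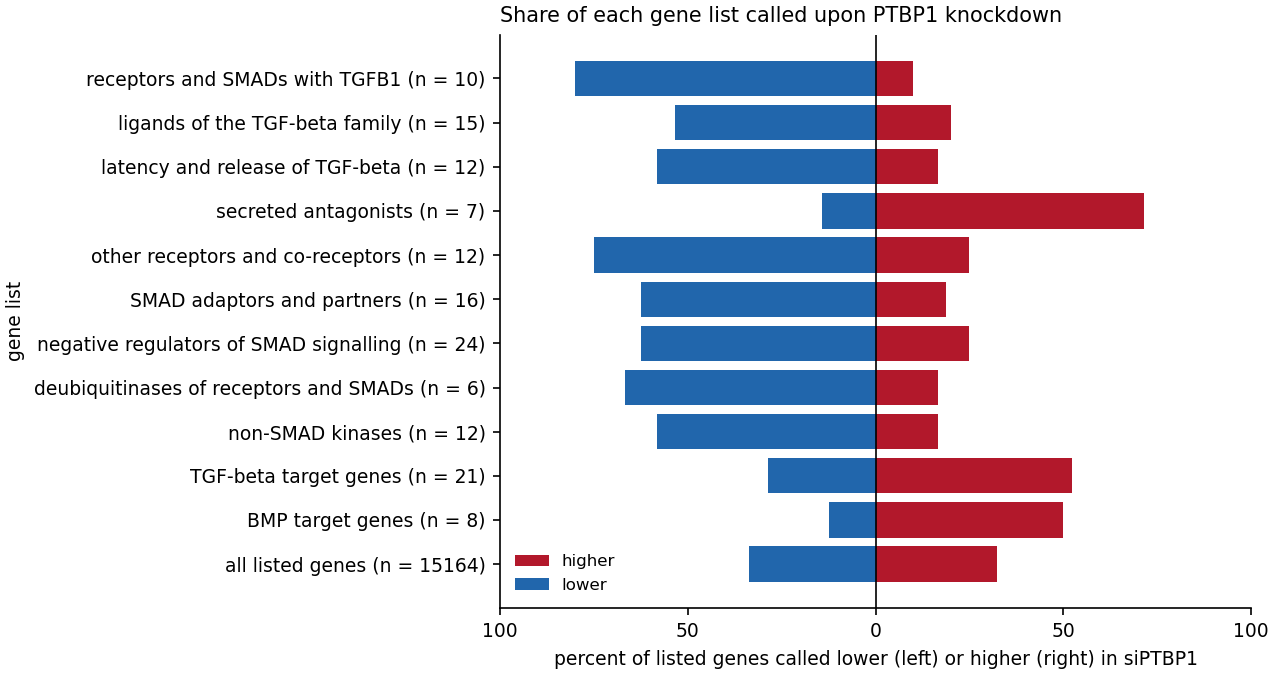
Percent of the genes with values in each list that were called lower (blue, left) or higher (red, right) in siPTBP1 against siCtrl, with the number of genes in parentheses and all genes in the bottom bar. The 10 genes show 80% lower and 10% higher calls as measured, beside 33.8% and 32.2% over all genes.

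After IGFRIL knockdown the only call among the 133 was TGFBI, an extracellular matrix protein named for its induction by TGF-beta and singled out here after its values were seen. It had 1144, 1115 and 1021 TMM-scaled counts in the siCtrl libraries, against 1403, 1459 and 1262 with siIGFRIL and 1579, 1590 and 1680 with siPTBP1, and the 3 groups did not overlap. Its log2 fold change in siIGFRIL was 0.33 (SE 0.063, adjusted p = 0.017). The call was lost without siCtrl library 2 (adjusted p = 0.0542), siIGFRIL library 1 (0.0966) or siIGFRIL library 2 (0.0622), without both libraries that stood apart (0.0605) and without scaling for depth (0.165). PMEPA1 (0.24, adjusted p = 0.203) and CCN2 (0.21, adjusted p = 0.425) did not pass the test in siIGFRIL.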

How the data were processed

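RNA-seq of 9 HepG2 libraries was used. Per the submitters' processing notes, reads were trimmed with Trim Galore 0.6.7, mapped to GRCh38 with Bowtie2 2.2.5 and counted with RSEM 1.2.8. Each deposited value is log2(count + 1) at 2 decimals, not scaled for depth by the authors, as read from the values. The table names the siIGFRIL columns by a number from an earlier name of IGFRIL. How the 15164 genes were filtered is not stated in the paper or labels. Counts were returned (rounding moves them by up to 0.347%), scaled by TMM (trims 0.3 and 0.05) and tested as log2(count + 1) with limma 3.58.1 (trend, robust, statmod 1.5.0; R 4.3.3), all 9 libraries in 1 fit. The pseudocount of 1 shrinks fold changes of low genes. Genes needed a log2 value of 1 in 3 libraries, which removed 0. Lengths, GC content and overlaps came from GENCODE on GRCh38, matched by symbol for 13876 genes (91.5%). Offsets were lowess trends (span 0.4). The fit was run on simulated data in which few genes changed and no length or GC trend was set. That run cannot show how the fit handles such a trend or changes in most genes. Genes named outside the 10 were the 3 most abundant and the most changed of each list plus set pathway genes, of which a part is printed and some are not reported here. Members and lists were chosen with earlier results of these data known. Tables and figures used Python 3.11.15 (numpy 2.4.6, pandas 2.3.3, matplotlib 3.10.9).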

Additional observations from a re-analysis of the deposited data

How the results depend on the processing

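Over 26 alternatives, the 10 genes kept direction and call in all 260 results for siIGFRIL, in 236 for siPTBP1 and in 237 for siPTBP1 against siIGFRIL. The exceptions came from quantile normalization, where TGFBR1 lost its call (-0.20), and from the offsets. Length and GC together reversed TGFBR1 (0.33 with exon length, 0.56 with canonical transcript length), SMAD2 (0.41 and 0.60), SMAD4 (0.27 and 0.30), SMAD3 (canonical, 0.11) and SMAD7 (exon, -0.35) in siPTBP1. Against siIGFRIL they reversed TGFBR1 (0.10 and 0.32), SMAD2 (0.36 and 0.47), SMAD4 (0.20 and 0.24) and SMAD3 (canonical, 0.14). Exon length alone, added after seeing the data, reversed TGFBR1 (0.0097), SMAD2 (0.13; 0.081 against siIGFRIL) and SMAD3 (0.016; 0.049) and left 3 of the 10 genes called lower against either group. GC alone, also added, reversed TGFBR1 (0.18), SMAD7 (-0.31), FURIN (-0.63), FSTL3 (-0.17), ENG (-0.10) and SMURF2 (0.097) and gave 20 other pathway genes called higher against siIGFRIL. Among the other genes, exon length with GC reversed FURIN (-0.42), FSTL3 (-0.23), ENG (-0.079), SMURF2 (0.21), MAP3K7 (0.13) and ID3 (-0.10) in siPTBP1. Canonical transcript length with GC reversed FSTL3 (-0.12), BMPR1A (0.034), BMPR2 (0.027), SMURF2 (0.51), USP9X (0.16), MAP3K7 (0.085) and ID3 (-0.10). Both offsets gave the 10 genes 4 higher and 5 lower calls in siPTBP1 (4 and 4 by canonical transcript), and 2 and 5 (3 and 4) against siIGFRIL. The replicate block with the offsets gave the same fold changes and the same 4 and 5, and 2 and 5, calls, with 15 genes called lower in siIGFRIL in place of 29. The replicate block alone changed no call of the 10 genes and gave 46 genes higher and 21 lower in siIGFRIL (41 and 29 without it). Same-numbered libraries did not vary together, with r of 0.24, -0.23 and -0.21 between siCtrl and siIGFRIL, -0.06, 0.06 and -0.19 between siCtrl and siPTBP1, and -0.15, -0.04 and 0.05 between siIGFRIL and siPTBP1. The highest r between groups was 0.42, between both libraries that stood apart, siCtrl 3 and siIGFRIL 2. Against it, siCtrl 3 had -0.32 with siIGFRIL 1, and siCtrl 1 had -0.31 with siIGFRIL 2. With the thresholds at 0.01 for the adjusted p and 1.5 for the fold change, 5 of the 10 genes were lower in siPTBP1 against either group. All genes then gave 3 higher and 2 lower in siIGFRIL, 3090 higher in siPTBP1, and 2954 higher and 3241 lower in siPTBP1 against siIGFRIL. Of the other pathway genes, 21 were then higher in siPTBP1 (22 against siIGFRIL) and 0 in siIGFRIL. The latter count was also 0 without scaling or without both libraries that stood apart, and 2 without robust estimation. Leaving out single libraries gave 24 to 60 genes higher and 9 to 92 lower in siIGFRIL, with 92 without siCtrl library 3 and 9 without siCtrl library 2, and 0 to 3 pathway genes higher and 0 to 2 lower. Leaving out both libraries that stood apart, an alternative added after seeing the data, gave 53 lower. Without scaling, the median of all genes in siPTBP1 shifted to -0.22, with 3557 higher and 6536 lower calls in place of 4888 and 5124. With scaling by total count alone, this median was -0.11, with 4216 higher and 5806 lower calls. The cause of these changes was not tested.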
